A study of Mus musculus with 50 samples.

Results

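The 10 genes described here are used as markers of fibroblasts and of cells with a mesenchymal character: Pdgfra, Pdgfrb, Fap, Thy1, Dcn, Lum, Postn, Sparc, S100a4 and Vim. They were taken by gene symbol as 10 of the 37701 rows of a table of RPKM values, that is, reads per kilobase of gene length scaled to the size of the library. All 10 were expressed at a mean above the limit of 0.5 RPKM, as were 16733 genes in all, and only those genes were tested. Each was measured in 50 mammary gland tumors, 10 from each of 5 treatment groups.

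The tumors arose in female p53R270H/+WAPCre mice, in which the promoter of the milk protein gene Wap drives Cre recombinase in mammary epithelium and switches on a mutant allele of the tumor suppressor p53. All groups, the vehicle group included, carried these alleles. From 8 weeks of age the mice received subcutaneous injections every other day of vehicle, insulin, glargine (a long-acting insulin analogue), X10 (an insulin analogue with an amino acid change in the B chain) or IGF1, until a tumor developed. Tumors were taken at 1 cm3, 24 h after the last injection, and the study sequenced those with an EMT-like (epithelial-to-mesenchymal transition) appearance and a latency close to their group's median. It reported a shorter latency in the X10 and IGF1 groups. Any effect of mouse age or length of treatment thus cannot be told apart from that of the treatments. Each tumor came from its own mouse and is named below by its label, the treatment and the mouse number (tumors labelled Untreated were taken as the vehicle group). The RNA came from whole tumor tissue, so that fewer cells of a type and less RNA per cell cannot be told apart.

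The positions of the genes are those of GRCm38 (coordinates from GENCODE M21). Pdgfra is at chr5:75152292-75198215, Pdgfrb at chr18:61045150-61085061, Fap at chr2:62500943-62574075, Thy1 at chr9:44043384-44048579, Postn at chr3:54361109-54391037, S100a4 at chr3:90603771-90606045, Vim at chr2:13573927-13582826 and Sparc at chr11:55394500-55423183. Dcn (chr10:97479609-97518143) and Lum (chr10:97565128-97572703) are neighbors on the same strand.

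Fibroblasts build the connective tissue of the mammary gland and of its tumors. They answer to platelet-derived growth factors through the receptors PDGFRα and PDGFRβ, and they secrete collagens together with proteins that organize collagen fibrils. Activated fibroblasts in tumors are recognized by the surface protease FAP and by matricellular proteins such as periostin. None of these markers belongs to fibroblasts alone: PDGFRβ also marks the mural cells of vessels, THY1 also marks T cells in the mouse, and vimentin and S100A4 are found in leukocytes and in carcinoma cells that have lost epithelial character.

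The table of RefSeq promoters (GRCm38.p6) held entries for Pdgfra, Postn, S100a4, Sparc and Vim, 5 of the 10 genes. The bases before the start sites of Postn and S100a4 are shown because these genes belonged to different correlated groups across tumors (below) and both windows lie outside annotated exons of their genes. A shorter stretch of Vim is added, whose window lies, in contrast, wholly within an annotated exon of the gene, downstream of its first annotated base. Capitals mark the letters TATAAA, the core of a TATA box.

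Postn, chr3:54360957-54361106, plus strand: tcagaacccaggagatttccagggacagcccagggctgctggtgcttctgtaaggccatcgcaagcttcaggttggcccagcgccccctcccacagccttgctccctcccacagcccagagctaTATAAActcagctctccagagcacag
S100a4, chr3:90603620-90603769, plus strand: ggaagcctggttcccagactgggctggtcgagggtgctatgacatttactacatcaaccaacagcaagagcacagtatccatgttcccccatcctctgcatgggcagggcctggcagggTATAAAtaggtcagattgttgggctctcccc
Vim, chr2:13574267-13574296, plus strand: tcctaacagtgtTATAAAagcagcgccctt

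The match began 26 bases before the start site in Postn, 31 bases before it in S100a4 and 32 bases before it in Vim. Of 32851 promoters in the table, 12.4% held TATAAA on either strand in the 250 bases before the start. The windows of Pdgfra, Sparc and a second start of Postn did not hold these letters. CCAAT, present in 33.8% of all promoters, was found only in the Vim window among the 6 windows of these genes. GGGCGG (32.7% of all promoters) and TGANTCA (6.75%) were found in none of the 6. These matches describe the letters of the windows only.

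The libraries held 26.6 M to 51.9 M reads (median 40.9 M), as recovered from the steps between low RPKM values, and no member correlated with library size past the threshold over the 50 tumors (smallest adjusted p = 0.94 for Pearson's r and 0.78 for Spearman's rho, permutation test). Within groups, Pearson's r with library size differed in sign: it was 0.70 in vehicle and -0.66 in X10 tumors for Pdgfra, and 0.73 in vehicle, -0.58 in X10 and -0.67 in IGF1 tumors for S100a4. Epithelial RNA varied widely: Cdh1, which encodes E-cadherin, had a median of 6.56 RPKM and reached 106 RPKM in Untreated_174, and Krt8, a keratin of simple epithelia, reached 1616 RPKM. The identifiers of the sequenced samples run in the order of treatment, so that any effect of that order and the treatments cannot be told apart. A tumor of the vehicle group, Untreated_161, stood apart from the rest and is described first.

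Untreated_161 had the lowest level of 6 of the 10 genes among the 50 tumors. Its level of Lum, which encodes the collagen-binding proteoglycan lumican, was 2.21 RPKM against a median of 66.5 in the other 49 tumors. Dcn, encoding the related proteoglycan decorin, was at 15.6 RPKM against 321, and Fap at 0.231 against 6.97. Thy1, a surface glycoprotein, was at 6.21 RPKM against 85.9, Postn at 83.2 against 527, and Sparc, encoding the collagen-binding protein osteonectin, at 1053 against 2748. Of the remaining genes S100a4 was low, at 135.8 RPKM (4th from the lowest of 50), whereas Vim was at 4769 RPKM (40th), Pdgfrb at 55.2 (45th) and Pdgfra at 60.3 (38th). The same tumor was also lowest of all in Acta2 (6.63 RPKM), a smooth muscle actin, in Rgs5 (3.50 RPKM), a pericyte gene, in Pecam1 (15.6 RPKM), an endothelial gene, and in Cd3e and Adipoq, genes of T cells and adipocytes. Of the epithelial genes, its Cdh1 level, 7.20 RPKM, was the 28th from the lowest, Epcam (14.5 RPKM) the 37th, Krt8 (580 RPKM) the 47th and Krt18 (529 RPKM) the 49th, and its Col1a1 level, 4247 RPKM, was the 8th. Values without this tumor are given below beside results that rest on it.

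**Figure D1:**
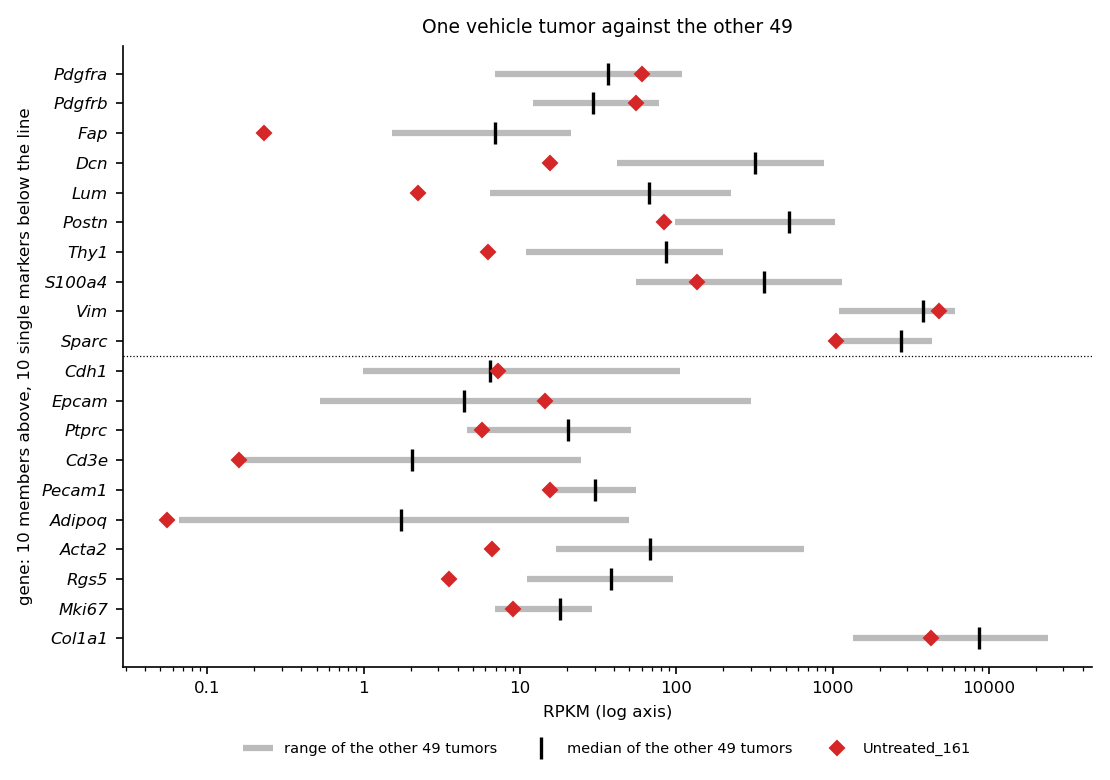
RPKM (log axis) of the 10 genes and of 10 single marker genes in Untreated_161 (red diamonds), with the range (grey bars) and the median (black ticks) of the other 49 tumors. Fap, Dcn, Lum, Postn, Thy1 and Sparc of Untreated_161 lie at or below the low end of the grey range, and its Pdgfra, Pdgfrb and Vim lie above the median.

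The levels of the 10 genes spanned more than 2 orders of magnitude. RPKM is per length, and levels of different genes are compared here on the lengths used in the table. For Vim and Sparc these are much shorter than the transcript with the longest coding sequence. They are also shorter for Fap (2211 against 2751 bases) and Lum (2075 against 2448), and slightly so for Pdgfra and Pdgfrb. For Dcn the table length is longer (1840 against 1758 bases). The mean over the 50 tumors was 3889 ± 1124 RPKM (SD) for Vim, 2681 ± 817 for Sparc, 555 ± 220 for Postn, 425 ± 277 for S100a4 and 345 ± 214 for Dcn. Lower means were found for Thy1 (93.6 ± 44.4 RPKM), Lum (71.7 ± 44.2), Pdgfra (44.9 ± 25.2), Pdgfrb (33.0 ± 13.7) and Fap (7.62 ± 4.52). By mean RPKM on these lengths, Vim ranked 6th and Sparc 13th of the 16733 genes, and Fap 9461st. Within a tumor, each gene was compared with the next in this order by a two-sided permutation test on log2(RPKM + 0.5), with Benjamini-Hochberg adjustment over the 9 neighbors. S100a4 and Dcn were not separated: S100a4 was higher in 26 of 50 tumors (adjusted p = 0.07). The other 8 neighboring pairs were separated, from Pdgfra over Pdgfrb (higher in 30 of 50 tumors, adjusted p = 0.037) to Sparc over Postn and Pdgfrb over Fap (50 of 50 tumors each).

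The order of Vim and Sparc depended on the gene length. The lengths recovered from the table's RPKM values are 723 bases for Vim and 908 bases for Sparc, and with them Vim was higher in 39 of 50 tumors. The transcripts with the longest coding sequence in GENCODE M21 measure 2193 and 1366 bases. Rescaled to these, Sparc had the higher mean (1782 against 1282 RPKM), and Vim was higher in only 11 of 50 tumors. No other neighbors changed order.

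The treatment comparisons ask whether repeated injection of an insulin-like molecule left a difference in these genes in the tumors. For each comparison all 50 tumors were fitted with limma on log2(RPKM + 0.5), and p-values were adjusted by the Benjamini-Hochberg method over all 16733 genes. No member had an adjusted p below 0.05 in any of the 8 comparisons, in the fit as designed or under any of the alternatives tried, among them voom on recovered reads, which also called 0 of the 10 in each. Few genes of any kind passed. The share of all tested genes with an adjusted p below 0.05 was 0% for insulin versus vehicle, 0% for glargine versus vehicle, 0.0657% for X10 versus vehicle and 0.00598% for IGF1 versus vehicle. It was 0.155% for X10 and IGF1 versus vehicle, insulin and glargine, 0% for glargine versus insulin, 0.102% for X10 versus insulin and 0.102% for any difference among the 5 treatments. The 4 comparisons with vehicle share the vehicle tumors, and fold changes below are log2 differences on the scale of log2(RPKM + 0.5).

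At an unadjusted p below 0.05 the members' counts ran from 0 to 3 of 10. For insulin versus vehicle the count was 0 of 10 (11.1% of all tested genes) and for X10 versus vehicle 0 of 10 (11% of all tested genes). For glargine versus vehicle it was 3 of 10 (6.23%) and for IGF1 versus vehicle 3 of 10 (8.84%). For X10 and IGF1 versus the other groups it was 1 of 10 (10.5%), for glargine versus insulin 1 of 10 (3.96%), for X10 versus insulin 0 of 10 (11.3%) and for any of the 5 treatments 3 of 10 (13.1%). Under other settings of the fit the count ran from 1 to 3 for IGF1 versus vehicle and for any of the 5 treatments. It ran from 2 to 3 for glargine versus vehicle, from 0 to 2 for glargine versus insulin and stayed at 0 or 1 in the rest. Without Untreated_161 the count went from 3 to 1 for glargine versus vehicle, from 0 to 1 for X10 versus vehicle and from 3 to 2 for any of the 5 treatments, and in the other 5 comparisons it was as before. Other single tumors moved these counts as well. IGF1 versus vehicle had 1 member in place of 3 without IGF1_124, IGF1_147 or Untreated_174, but 4 without Untreated_187. Any of the 5 treatments had 1 in place of 3 without glargine_62, glargine_73, glargine_78, IGF1_128 or IFG1_132. Insulin versus vehicle had 2 in place of 0 without Untreated_186, Untreated_189 or Untreated_194, X10 and IGF1 versus the other groups 2 and X10 versus insulin 1 without X10_105, and X10 versus vehicle 1 without any of several tumors. The share of all tested genes at this threshold is not given for these other fits, so the changes in count are a description only. Untreated_161 also moved several of the fold changes: without it, the median log2 fold change of the 10 genes went from 0.57 to 0.26 for glargine versus vehicle, from 0.27 to 0.01 for X10 versus vehicle and from 0.24 to -0.06 for IGF1 versus vehicle. The medians over all tested genes were 0.02, -0.03 and 0.02 in these comparisons.

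**Figure D2:**
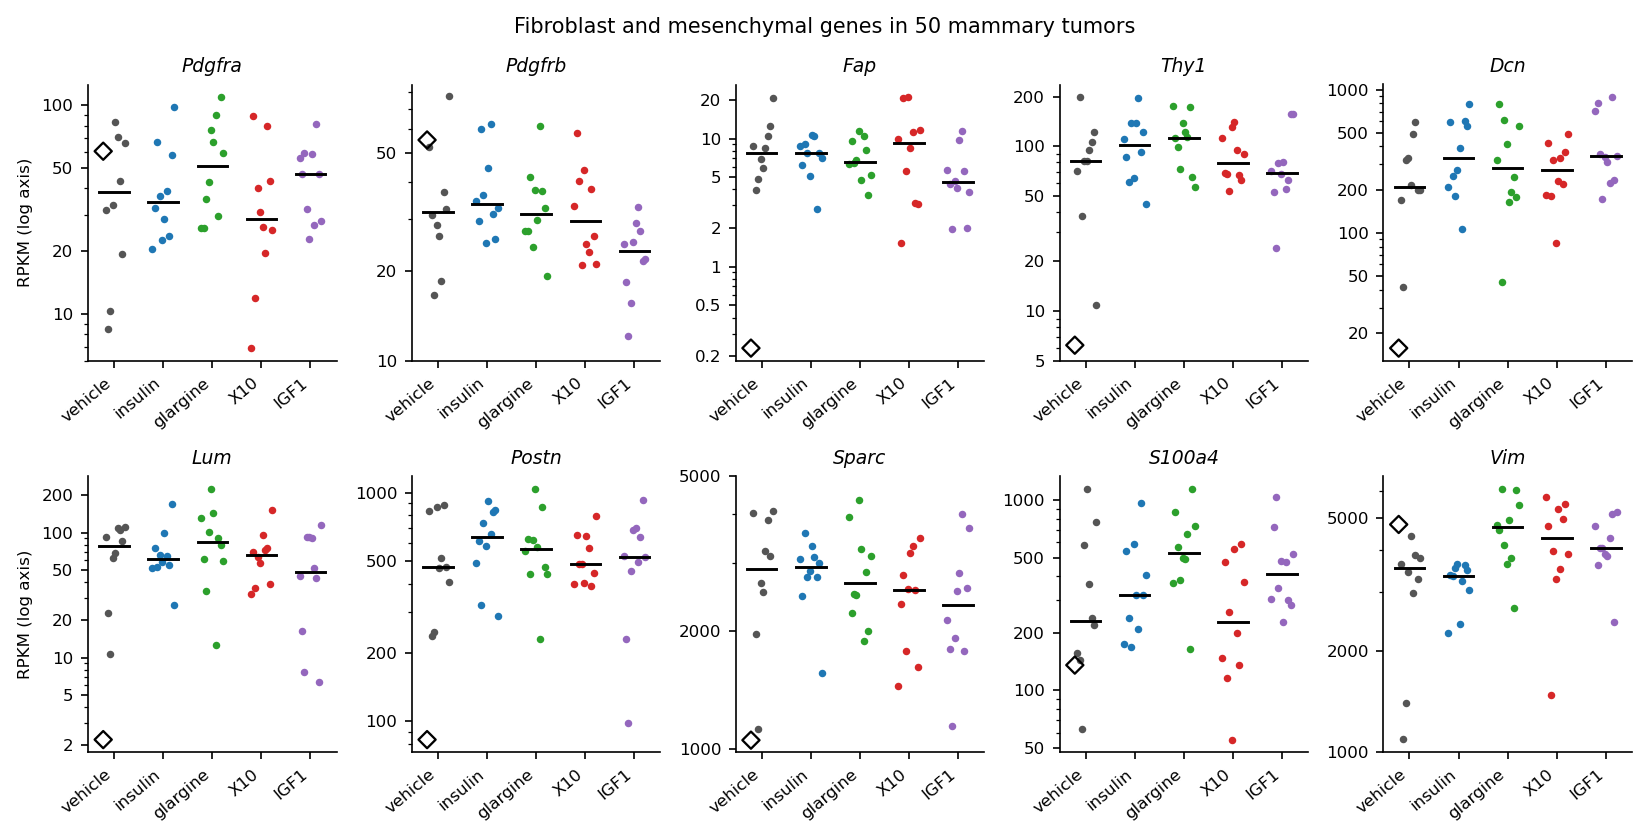
RPKM (log axis) of each of the 10 genes in the 50 tumors by treatment group; points are tumors, black lines are group medians and the open diamond is Untreated_161. The groups overlap for every gene, and the spread within each group is wider than the distance between group medians.

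Of the PDGF receptors, Pdgfrb had the lowest levels in the IGF1 group. Its RPKM ran from 16.6 to 77.3 (median 31.5) in vehicle tumors, from 24.9 to 62.6 (median 33.5) in insulin tumors and from 19.3 to 61.3 (median 31.0) in glargine tumors. It ran from 21.0 to 58.1 (median 29.6) in X10 tumors and from 12.1 to 32.8 (median 23.3) in IGF1 tumors. The highest IGF1 tumor, IGF1_145, was thus close to the median of the vehicle group, and the groups overlapped. The log2 fold change of IGF1 versus vehicle was -0.61 ± 0.22 (SE, unadjusted p = 0.00955, limma adjusted p = 0.394), and -0.53 ± 0.23 without Untreated_161 (unadjusted p = 0.0248, limma adjusted p = 0.568). X10 differed less from vehicle (-0.12 ± 0.22), and the treatments accounted for 20.3% of the variance of Pdgfrb, against a median of 9.29% over all tested genes. For X10 and IGF1 versus the other groups, Pdgfrb was the only member with an unadjusted p below 0.05. It was lower in X10 and IGF1 (unadjusted p = 0.0132, limma adjusted p = 0.305), also without Untreated_161 (unadjusted p = 0.020, limma adjusted p = 0.334).

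Pdgfra, the receptor that binds PDGF-A chains, varied more within groups than between them. Its range was 8.48 to 83.7 RPKM (median 38.3) in vehicle tumors and 6.88 to 88.6 (median 28.5) in X10 tumors. In the insulin, glargine and IGF1 groups no tumor was below 20.4 RPKM, and the medians were 34.5, 51.2 and 47.1. The low values were those of a few tumors of the vehicle and X10 groups, and the smallest p was that of glargine versus vehicle, with a log2 fold change of 0.55 ± 0.39 (unadjusted p = 0.162, limma adjusted p = 0.833). The ligands were all measured: Pdgfa had a mean of 88.6 ± 38.0 RPKM (SD, n = 50), Pdgfb 14.3 ± 6.82, and of the 4 ligand genes 0 rose and 0 fell in any comparison. For X10 and IGF1 versus the other groups, Pdgfa had a log2 fold change of 0.15 (limma adjusted p = 0.847) and Pdgfb of -0.12 (limma adjusted p = 0.875).

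Fap and Thy1 mark the fibroblast surface. Fap, a serine protease that is low in resting tissue, had group medians between 4.56 RPKM (IGF1) and 9.19 RPKM (X10). Its highest levels were 21.1 RPKM in X10_111 and 20.6 RPKM in each of X10_105 and Untreated_197. IGF1 versus vehicle gave a log2 fold change of -0.38 ± 0.39 (SE, unadjusted p = 0.332, limma adjusted p = 0.867), and -0.74 ± 0.34 (unadjusted p = 0.0328, limma adjusted p = 0.611) without Untreated_161. Thy1 had group medians of 81.5 RPKM (vehicle), 102 (insulin), 112.5 (glargine), 79.2 (X10) and 69.1 (IGF1). For glargine versus vehicle the log2 fold change of Thy1 was 0.90 ± 0.39 (unadjusted p = 0.0242, limma adjusted p = 0.789), with Untreated_161 as the lowest tumor in the comparison. Without that tumor it was 0.56 ± 0.34 (unadjusted p = 0.105, limma adjusted p = 0.955).

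Dcn and Lum belong to the small leucine-rich proteoglycans, which coat collagen fibrils. Dcn ran from 15.6 to 597 RPKM (median 208) in vehicle tumors, 106.6 to 794 (median 332) in insulin tumors and 45.2 to 786 (median 282) in glargine tumors. In X10 tumors it ran from 84.8 to 489 (median 275), and in IGF1 tumors from 172 to 886 (median 342). Each group thus held tumors that differed by 5-fold or more, the smallest ratio of highest to lowest being 5.15 in the IGF1 group. IGF1 versus vehicle gave a fold change of 1.09 ± 0.48 on the log2 scale (unadjusted p = 0.0272, limma adjusted p = 0.494), but 0.70 ± 0.43 (unadjusted p = 0.11, limma adjusted p = 0.768) without Untreated_161. Lum showed the widest spread of all 10, with an SD of 1.24 on the log2 scale (1.08 without Untreated_161). It reached 225.5 RPKM in glargine_64 and was at 6.45 RPKM in IGF1_158, and the group medians ran from 48.7 RPKM (IGF1) to 85.0 RPKM (glargine). Of the 8 other genes of this family 6 were tested and 0 passed in any comparison. Fmod, encoding fibromodulin, had a log2 fold change of -1.18 (limma adjusted p = 0.330) for X10 and IGF1 versus the other groups, and Aspn, encoding asporin, of -0.53 (limma adjusted p = 0.592).

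Postn and Sparc encode secreted proteins of the collagen matrix. Sparc ran from 1053 to 4074 RPKM (median 2887) in vehicle tumors, 1564 to 3562 (median 2932) in insulin tumors and 1889 to 4344 (median 2663) in glargine tumors. It ran from 1451 to 3469 (median 2556) in X10 tumors and from 1145 to 4007 (median 2339) in IGF1 tumors. These ranges overlapped almost fully, and treatment accounted for 4.94% of the variance of Sparc, the smallest share of the 10 genes. Postn had group medians between 472 RPKM (vehicle) and 637 RPKM (insulin), and its lowest level outside Untreated_161 was 98.8 RPKM in IFG1_132, which was taken as an IGF1 tumor with transposed letters in its label. Its largest fold change was 0.52 ± 0.33 (log2, SE) for insulin versus vehicle (unadjusted p = 0.119, limma adjusted p = 0.562), and 0.26 ± 0.30 without Untreated_161 (unadjusted p = 0.385, limma adjusted p = 0.843).

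Vim, encoding the intermediate filament protein of mesenchymal cells, was the only gene with an unadjusted p below 0.05 in a comparison of 2 insulins. It ran from 2267 to 3642 RPKM (median 3355) in insulin tumors and from 2683 to 6102 (median 4676) in glargine tumors. In vehicle tumors its median was 3545 RPKM, in X10 tumors 4346 and in IGF1 tumors 4056. Of the glargine tumors, most lay above the highest insulin tumor, whereas the insulin group had the narrowest range of the 5 (1.61-fold). Glargine versus insulin gave a log2 fold change of 0.51 ± 0.21 (95% confidence interval 0.08 to 0.93, unadjusted p = 0.0196, limma adjusted p = 0.990) and glargine versus vehicle 0.58 ± 0.21 (unadjusted p = 0.00771, limma adjusted p = 0.789). X10 versus insulin gave 0.34 (95% confidence interval -0.08 to 0.76, limma adjusted p = 0.559). Without Untreated_161, where Vim was high, glargine versus vehicle went from 0.58 to 0.66 (unadjusted p = 0.00326, limma adjusted p = 0.955), IGF1 versus vehicle from 0.43 to 0.51 and X10 versus vehicle from 0.42 to 0.49 (unadjusted p = 0.025, limma adjusted p = 0.442).

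S100a4 encodes a calcium-binding protein also called fibroblast-specific protein. It ran from 62.8 to 1151 RPKM (median 231) in vehicle tumors, 168 to 970 (median 318) in insulin tumors and 166 to 1153 (median 531) in glargine tumors. In X10 tumors it ran from 55.1 to 588 (median 230) and in IGF1 tumors from 228 to 1035 (median 410). The highest tumors of the vehicle, glargine and IGF1 groups were thus at similar levels. Glargine versus vehicle gave 0.96 ± 0.42 on the log2 scale (unadjusted p = 0.0252, limma adjusted p = 0.789), and 0.855 ± 0.43 without Untreated_161 (unadjusted p = 0.0513, limma adjusted p = 0.955). Glargine versus insulin gave 0.64 (95% confidence interval -0.20 to 1.48, limma adjusted p = 0.990) and X10 versus insulin -0.56 (95% confidence interval -1.40 to 0.28, limma adjusted p = 0.646). These intervals leave room for differences of more than 2-fold between the insulins in either S100a4 comparison.

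**Figure D3:**
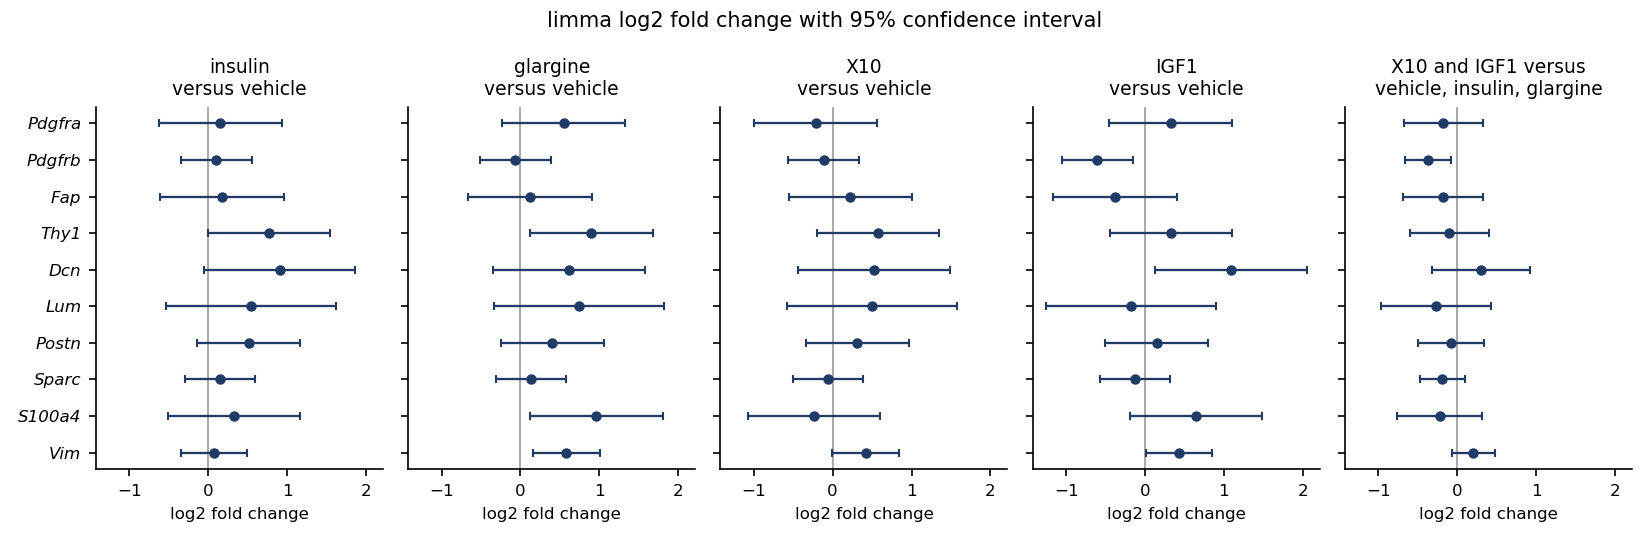
log2 fold change (points) with 95% confidence interval (bars) of the 10 genes in the 4 comparisons with vehicle and in X10 and IGF1 versus vehicle, insulin and glargine, from limma on log2(RPKM + 0.5). Intervals that leave out 0, such as those of Pdgfrb and Dcn for IGF1 versus vehicle, belong to genes with an unadjusted p below 0.05, none of which passed the adjusted threshold.

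Other genes of the same tissue also had no adjusted p below 0.05. Of 24 further fibroblast genes 0 rose and 0 fell in any comparison. For X10 and IGF1 versus the other groups 21 of the 24 had a negative log2 fold change, against 9444 of all 16733 tested genes. The median was -0.25, against -0.02 over all tested genes. An unadjusted p below 0.05 was found for 4 of the 24, against 10.5% of all tested genes. The smallest p-values there were those of Ccdc80 (-0.55, limma adjusted p = 0.288), a secreted matrix protein, and Col5a2 (-0.48, limma adjusted p = 0.333), a collagen chain. Of 14 contractile and mural genes 0 passed, with Notch3 at -0.24 (limma adjusted p = 0.701) and Kcnj8 at 0.19 (limma adjusted p = 0.713).

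Genes of other cell types passed in none of the comparisons either. All 12 epithelial genes had a negative log2 fold change for insulin versus vehicle (median -1.33) and for IGF1 versus vehicle (median -2.002). An unadjusted p below 0.05 was found for 5 of the 12 in the first comparison, against 11.1% of all tested genes, and for 8 of the 12 in the second, against 8.84%. Their summed level ran from 13.9 to 7258 RPKM in vehicle tumors, from 85.5 to 602 in insulin tumors and from 14.6 to 708 in IGF1 tumors, and of the 12 only Krt5 was at 0 in any tumor. With a score of these genes in the fit, the number of members with an unadjusted p below 0.05 went from 3 to 1 for IGF1 versus vehicle and for any of the 5 treatments, was 3 as before for glargine versus vehicle and 1 as before for X10 and IGF1 versus the other groups. It went from 0 to 1 for insulin and for X10 versus vehicle and for X10 versus insulin, and from 1 to 2 for glargine versus insulin. For X10 and IGF1 versus the other groups, the genes with the smallest p-values were Cldn7 (-0.81, limma adjusted p = 0.657) and Epcam (-0.78, limma adjusted p = 0.681) among the epithelial genes, and Lyz2 (0.21, limma adjusted p = 0.756) and Cd74 (0.21, limma adjusted p = 0.921) among 9 leukocyte genes. Among 5 T cell genes they were Lck (-0.12, limma adjusted p = 0.950) and Cd2 (-0.12, limma adjusted p = 0.951), and among 6 endothelial genes Emcn (0.16, limma adjusted p = 0.634) and Kdr (-0.17, limma adjusted p = 0.779). Among 5 adipocyte genes they were Lep (-0.56, limma adjusted p = 0.556) and Plin1 (-0.49, limma adjusted p = 0.693), and among 6 skeletal muscle genes Myh1 (-0.35, limma adjusted p = 0.927) and Myh4 (0.35, limma adjusted p = 0.944). The summed level of the adipocyte genes reached 511 RPKM in glargine tumors, and its median, 43.3 to 72.4 RPKM in the other groups, was highest there. For glargine versus vehicle the 5 tested adipocyte genes all had a positive log2 fold change (median 1.03), 2 of them with an unadjusted p below 0.05 (6.23% of all tested genes). With scores of the adipocyte and muscle genes in the fit, the number of members with an unadjusted p below 0.05 was 2 in place of 3 for glargine and for IGF1 versus vehicle and 1 in place of 0 for insulin versus vehicle, and as before in the other 5 comparisons. The share of all tested genes at that threshold is not given for the fits with scores. These changes in count are thus a description only, and their cause was not tested.

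The 10 genes varied more between tumors than most genes. The median SD of their log2 levels was 0.893, against 0.419 over all tested genes, and it was lowest for Sparc (0.493) and Vim (0.507). Without Untreated_161 the median was 0.763, against 0.415 over all tested genes. Treatment accounted for a median of 10.0% of their variance, close to the 9.29% over all tested genes. Most of the spread thus lay between tumors of the same treatment.

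That spread was not shared by all 10. Over the 45 pairs the Pearson correlation of log2(RPKM + 0.5) across the 50 tumors had a median of 0.15 and ran from -0.42 to 0.75, with 34 pairs positive and 11 negative. Over all pairs of tested genes the median was 0.02. The correlation was at least 0.5 in 15.6% of the 45 pairs, against 2.86% of all pairs, and without Untreated_161 in 8.89% (4 pairs) against 2.93% of all pairs. By a permutation test of 100000 resamples with adjustment over the 45 pairs, 17 pairs had an adjusted p below 0.05, 16 of them positive. By Spearman's rho the count was 11. Without Untreated_161 the count of pairs by Pearson's r was 11, of which 9 were among the 17, and leaving out any other tumor left 15 to 18.

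**Figure D4:**
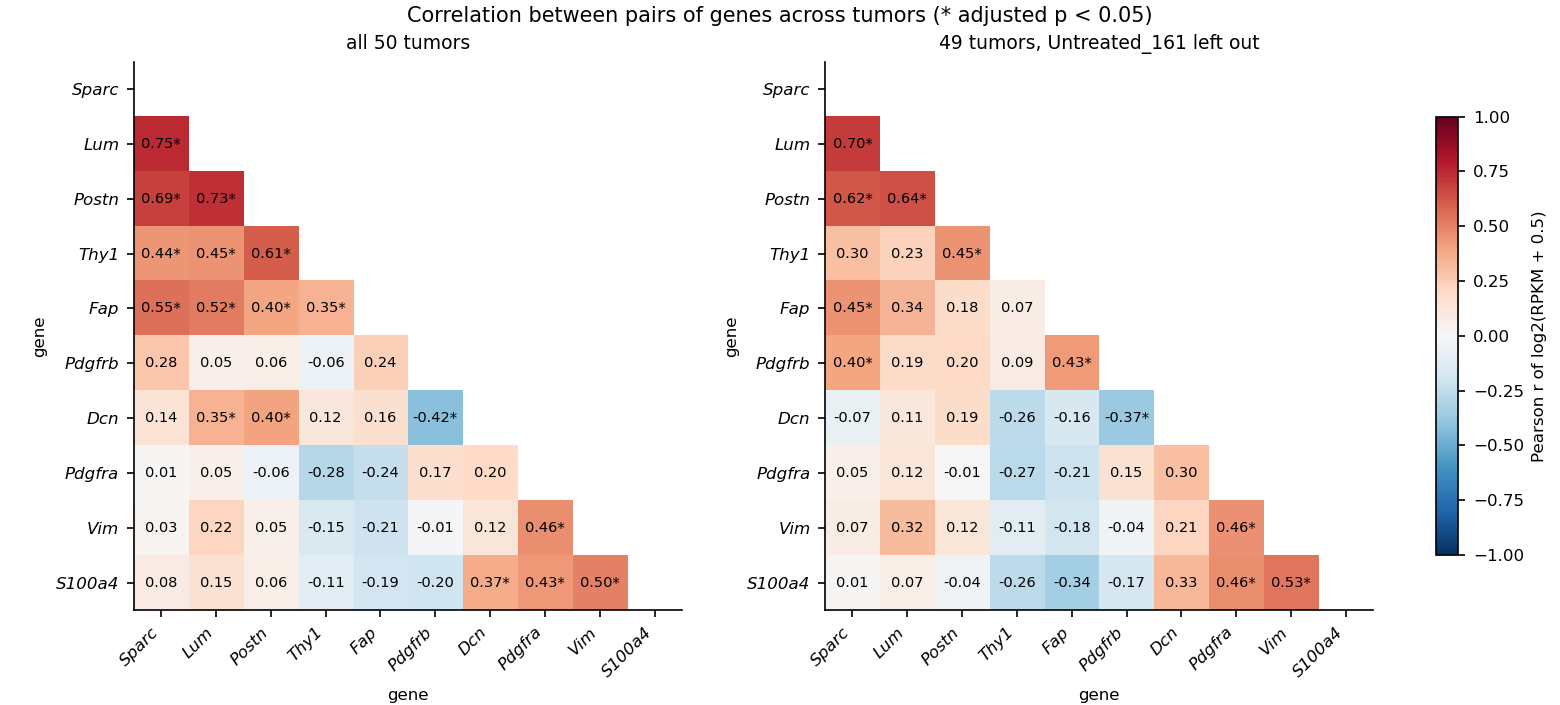
Pearson correlation of log2(RPKM + 0.5) for the 45 pairs of genes, over all 50 tumors (left) and over 49 tumors without Untreated_161 (right); color and number give r, and an asterisk marks an adjusted p below 0.05. Sparc, Lum and Postn form a block of high values in both panels, as do Pdgfra, Vim and S100a4, while most correlations of Fap, Thy1 and Dcn are lower on the right.

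The matrix genes Lum, Sparc and Postn were the most closely linked. Lum and Sparc had r = 0.75 (rho = 0.67), Lum and Postn r = 0.73 (rho = 0.56) and Postn and Sparc r = 0.69 (rho = 0.50). Each had a p of 1e-05, the smallest that 100000 permutations can give (adjusted p = 0.00015). The correlations were positive within each of the 5 treatment groups, from 0.43 (Postn and Sparc, insulin) to 0.95 (Lum and Sparc, vehicle). Without the 2 tumors farthest from the median of Lum, r was 0.77 for Lum and Sparc and 0.81 for Lum and Postn. Without the 2 farthest from the median of the other gene, these values were 0.66 and 0.56. Postn and Sparc had r = 0.54 without the 2 farthest in Postn and 0.59 without the 2 farthest in Sparc. Without Untreated_161 the 3 pairs had r = 0.70, 0.64 and 0.62. Postn and Thy1 (r = 0.61) and Fap and Sparc (r = 0.55) also passed, and both passed without Untreated_161 (r = 0.45 each). By contrast, the correlations of Fap with Lum, Postn and Thy1 and of Thy1 with Lum and Sparc, from 0.35 to 0.52 over all tumors, were between 0.07 and 0.34 without Untreated_161 and no longer passed. The same held for Dcn with Lum, Postn and S100a4 (0.35 to 0.40 over all tumors, 0.11 to 0.33 without Untreated_161).

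Vim, S100a4 and Pdgfra formed a separate block. S100a4 and Vim had r = 0.50 (rho = 0.42, adjusted p = 0.0018 by permutation), Pdgfra and Vim r = 0.46 (adjusted p = 0.0038) and Pdgfra and S100a4 r = 0.43 (adjusted p = 0.007). All 3 passed without Untreated_161, with r between 0.46 and 0.53. They were not alike in all groups: Pdgfra and Vim had r = 0.86 in vehicle tumors, 0.19 to 0.32 in insulin, glargine and X10 tumors and 0.00 in IGF1 tumors, and Pdgfra and S100a4 r = 0.70 in vehicle, 0.51 in glargine and 0.32 in X10 tumors but -0.17 in insulin and -0.20 in IGF1 tumors. S100a4 and Vim were positive in each group, from 0.11 (IGF1) to 0.73 (glargine). The rank correlations of Pdgfra with Vim (rho = 0.29) and with S100a4 (rho = 0.33) did not pass after adjustment, and without the 2 tumors farthest from the median of Vim the correlation of Pdgfra and Vim was 0.25. Between these genes and the matrix genes, the 9 correlations ran from -0.06 (Pdgfra and Postn) to 0.22 (Vim and Lum), and none passed. Vim and Lum had r = 0.32 without Untreated_161 (adjusted p = 0.084 by permutation).

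Dcn and Lum, although neighbors on chromosome 10 and related in sequence family, were only weakly linked. Their correlation was 0.35 over all tumors (rho = 0.12), 0.11 without Untreated_161 and 0.04 without the 2 tumors farthest from the median of Dcn. Dcn and Pdgfrb had a negative correlation past the threshold (r = -0.42, rho = -0.45, adjusted p = 0.0092 by permutation), and it also passed without Untreated_161 (r = -0.37). Within groups it was negative in the vehicle, insulin, glargine and X10 tumors (-0.43, -0.59, -0.58 and -0.40) and 0.10 in the IGF1 tumors. Pdgfra and Thy1 had r = -0.28 (adjusted p = 0.12 by permutation), but r = -0.36 with treatment means removed, which passed (adjusted p = 0.028), and their correlation was negative in each of the 5 groups. Pdgfrb correlated with Fap (r = 0.43) and with Sparc (r = 0.40) past the threshold when Untreated_161 was left out. Over all tumors the values were 0.24 and 0.28, which did not pass, although Fap passed by rank (rho = 0.38, adjusted p = 0.037 by permutation) and Sparc with upper quartile scaling (r = 0.34, adjusted p = 0.038 by permutation).

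**Figure D5:**
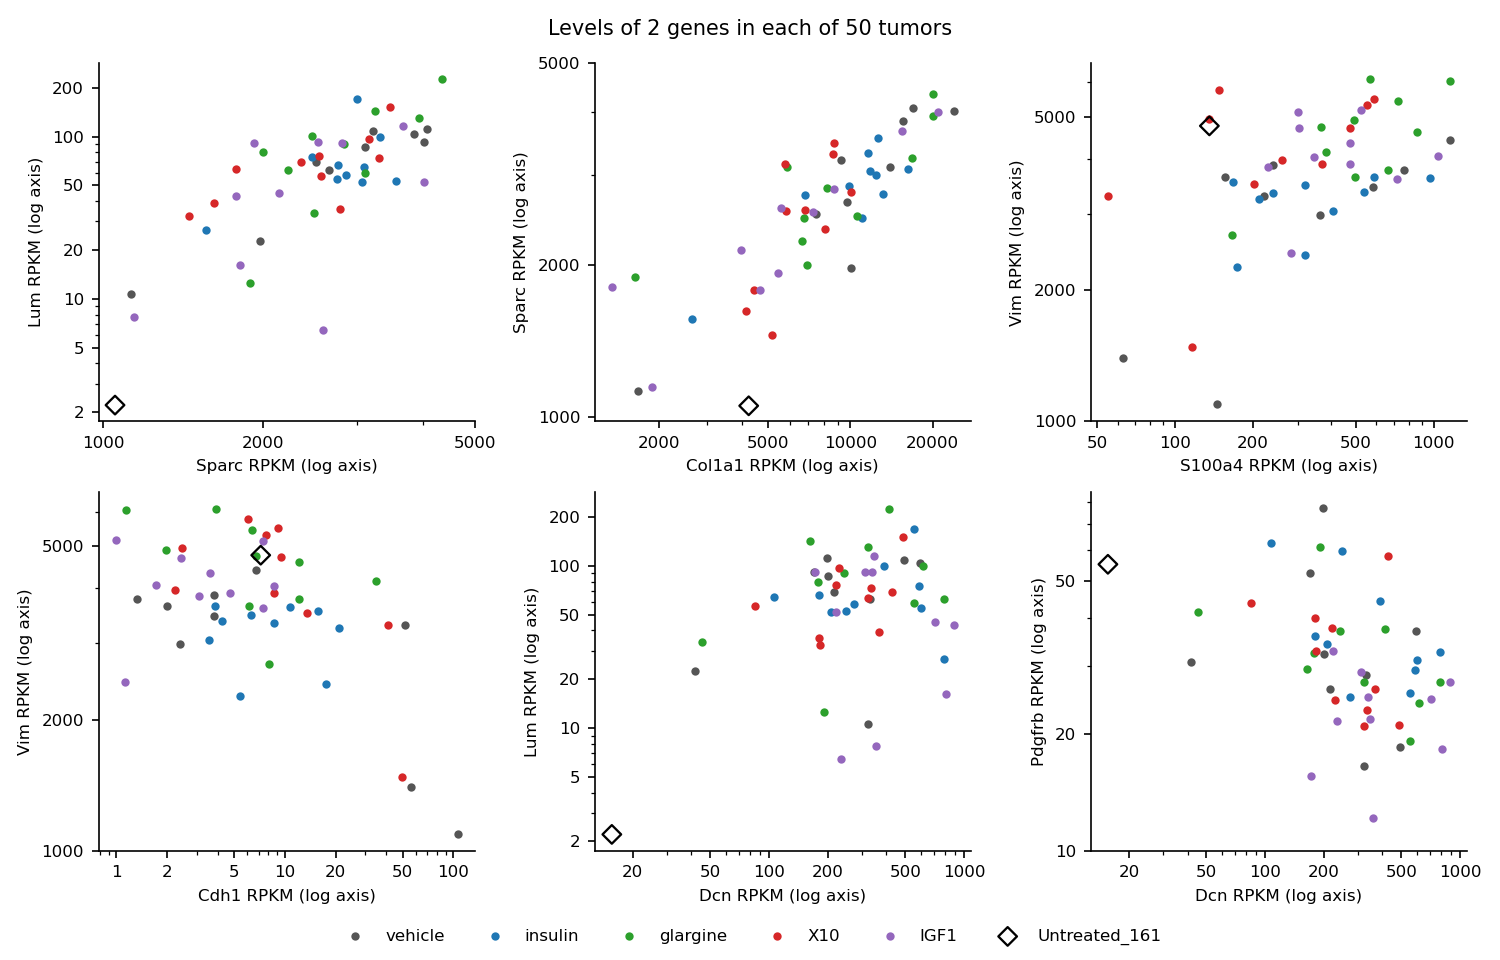
RPKM of 2 genes in each tumor (log axes), for Lum against Sparc, Sparc against Col1a1, Vim against S100a4, Vim against Cdh1, Lum against Dcn and Pdgfrb against Dcn; colors are treatment groups and the open diamond is Untreated_161. Lum and Sparc, and Sparc and Col1a1, follow each other, Vim is lowest in 3 tumors with high Cdh1, though not in all tumors with high Cdh1, and Dcn is lower where Pdgfrb is higher.

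Single marker genes of other cell types were then compared with each member, 100 relations in all. By the same permutation test 24 had an adjusted p below 0.05. Without Untreated_161 the count was 12, of which 11 were among the 24, and leaving out any other tumor left 19 to 29. The matrix genes followed Col1a1, the chain of type I collagen: r was 0.83 for Sparc (0.85 without Untreated_161), 0.67 for Lum (0.70) and 0.59 for Postn (0.61). Within the 5 groups the correlation of Sparc and Col1a1 lay between 0.75 and 0.90. Pdgfrb followed Col1a1 less closely (r = 0.39, adjusted p = 0.027 by permutation; 0.43 without Untreated_161), and so did Fap (r = 0.38, adjusted p = 0.034), which did not pass without Untreated_161.

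Acta2, which marks smooth muscle, myoepithelial cells and myofibroblasts, correlated with Sparc (r = 0.50), Thy1 (r = 0.44), Postn (r = 0.43) and Fap (r = 0.42), of which only Sparc passed without Untreated_161 (r = 0.43). By rank each of these passed over all tumors (rho from 0.37 to 0.54, adjusted p from 0.0017 to 0.044 by permutation). Pdgfra and Acta2 had a negative correlation past the threshold (r = -0.36, rho = -0.43, adjusted p = 0.042 and 0.02 by permutation). It was negative in each of the 5 groups but did not pass without Untreated_161 (r = -0.35, adjusted p = 0.083 by permutation). Vim and Acta2 passed by rank only (rho = -0.38, adjusted p = 0.037 by permutation). Dcn and Acta2 had r = -0.25 over all tumors (adjusted p = 0.17 by permutation), where the rank correlation passed (rho = -0.44, adjusted p = 0.016), and r = -0.56 (adjusted p = 0.0012 by permutation) without Untreated_161, where both genes were lowest. Fap (r = 0.48) and Dcn (r = 0.45) correlated with the pericyte gene Rgs5, and Dcn with Pecam1 (r = 0.44). None of these 3 relations passed without Untreated_161. Sparc correlated with Adipoq, an adipocyte gene, both with Untreated_161 (r = 0.42) and without it (r = 0.39).

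Vim, S100a4 and Pdgfra were negatively correlated with single epithelial genes. With Cdh1, r was -0.54 for Vim (adjusted p = 0.0022 by permutation), -0.50 for Pdgfra (adjusted p = 0.004) and -0.45 for S100a4 (adjusted p = 0.01). With Epcam, an epithelial adhesion molecule, r was -0.49 for Vim and -0.41 for S100a4. These 5 relations passed without Untreated_161. By Spearman's rho only that of Pdgfra and Cdh1 passed (rho = -0.39, adjusted p = 0.032 by permutation), and the other 4 had rho from -0.33 to -0.23 (adjusted p from 0.082 to 0.24). Pdgfra and Epcam passed over all tumors (r = -0.36, adjusted p = 0.042 by permutation) but not without Untreated_161 (r = -0.37, adjusted p = 0.064). Vim and Pdgfra also ran against the T cell gene Cd3e (r = -0.38 and -0.36, adjusted p = 0.034 and 0.042 by permutation). By rank both passed as well (rho = -0.42 and -0.40). Without Untreated_161 neither passed by r (r = -0.37 and -0.35, adjusted p = 0.069 and 0.08). The correlations with epithelial genes were carried in part by a few tumors. Untreated_174, the tumor with the most Cdh1, had the lowest Vim level of all (1094 RPKM). Without the 2 tumors farthest from the median of Cdh1 the correlations with Cdh1 were -0.33 for Vim, -0.36 for Pdgfra and -0.35 for S100a4. Within groups the correlation of Vim and Cdh1 was -0.75 in vehicle and -0.70 in X10 tumors, -0.49 in glargine tumors, and -0.07 and 0.19 in insulin and IGF1 tumors.

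Among all tested genes, those nearest to each member by Pearson correlation over the 50 tumors were mostly not members. They are named as a description, without a test. Without Untreated_161 the gene named first for each member again came first, except for Fap (Islr 6th, r = 0.61). Lum was nearest to Col3a1 (r = 0.86), Lrrc15 (0.84) and Mfap2 (0.82), and Sparc to Col3a1 (0.89), Fstl1 (0.84) and Col1a1 (0.83). Col3a1 encodes type III collagen, and Mfap2 a protein of elastic microfibrils. Postn was nearest to P4ha3 (0.78), which encodes a subunit of a collagen prolyl hydroxylase, and to Rian (0.77) and Tshz3 (0.75). Fap was nearest to Islr (0.73), Aspn (0.72) and Plxdc2 (0.72), and Thy1 to Pcsk5 (0.74), Mcoln2 (0.74) and Slit3 (0.73). The fibrillar collagen gene Col5a2 (0.71) came first for Pdgfrb, followed by Fzd1 (0.68) and Pappa (0.62).

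The 3 nearest genes of each remaining member held no collagen gene, which was also so for Postn, Fap and Thy1. Pdgfra was nearest to Cacna1c (0.77), Ptgfr (0.72) and Gm5454 (0.70). Vim was nearest to Dnm1 (0.69), Parvb (0.68) and Layn (0.67), and S100a4 to Gm20712 (0.68), 9330154J02Rik (0.67) and Mrgprf (0.65). Dcn was nearest to Gkap1 (0.71), Mfsd8 (0.63) and Mark1 (0.63). The first member among the neighbors of Dcn, Postn, ranked 715th of 16732 genes, whereas Lum ranked 9th for Postn and 11th for Sparc. Without Untreated_161 the first member for Dcn was S100a4 (980th), and Lum ranked 12th for Postn and 19th for Sparc, while Mfsd8 and Mark1 ranked 19th and 90th for Dcn (r = 0.56 and 0.50).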

How the data were processed

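Total RNA of 50 tumors was poly-A selected, made into libraries with an Ion Torrent kit and sequenced. Per the labels, the authors aligned reads to GRCm38 with TopHat2 (2.0.10) and Bowtie2, counted them with HTSeq (0.6.1) and used DESeq2 (1.2.10). The deposited values are RPKM per gene, and all their columns were matched to a tumor by its title; 0 columns were left over. Reads per gene and library sizes were recovered from the steps between low RPKM values (at least 95.8% of low values whole in each library, and lengths for 99.4% of tested genes). Intervals and p-values cover the spread between tumors; separate mice are named by the labels.

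Genes whose mean reached 0.5 RPKM were tested on log2(RPKM + 0.5) with limma (3.58.1, R 4.3.3) in 1 model with intensity trend and 5 group means, with Benjamini-Hochberg adjustment at 0.05. The fit was tested on simulated data. Correlations used Pearson's r and Spearman's rho with 100000 permutations (NumPy 2.4.6, SciPy 1.17.1), and 10000 when each tumor was left out in turn. By plan the 10 genes were to be named in each comparison, with the 3 nearest genes of each. Also planned were the 2 genes with the smallest p of each other list where none passed. Marker relations past the threshold were to be named up to the strongest 2 per gene. In the text not every member is named in every comparison, and for some genes more than 2 marker relations are given. Other genes and relations were named after their values were seen. The genes and lists were chosen with earlier results of these data known.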

Additional observations from a re-analysis of the deposited data

Results flagged for a closer look

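Each of the 50 sets of 10 values (10 genes in 5 groups) was searched for a tumor far from the other 9, by the gap to the nearest other tumor over the range of the group, and 3 sets held one, where chance gives about 1 in 20. Pdgfrb was at 61.3 RPKM in glargine_69, against 41.5 in the next glargine tumor. Lum was at 169.6 RPKM in insulin_27, against 99.7 in the next insulin tumor. S100a4 was at 970.0 RPKM in insulin_26, against 588 in the next. On the linear scale of this search Untreated_161 was not among them.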

How the results depend on the processing

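No paired analysis was possible because the mouse numbers are not shared between groups. The number of members called was 0 in all 494 alternative fits of the 8 comparisons, and the smallest adjusted p of a member in any of them was 0.181 (limma). Of the 70 fold changes (10 genes, 7 comparisons), 18 of 830 values under another setting and 51 of 3500 without 1 tumor changed sign, none past the threshold. Of the 15 fold changes given above only Pdgfrb for X10 versus vehicle did so, at 0.015 with library size in the fit and from -0.23 to 0.016 without 1 tumor; the cause was not tested. Without Untreated_161, 11 pairs of members and 12 relations with markers passed in place of 17 and 24. With the lengths of the transcripts with the longest coding sequence, chosen after seeing the data, the mean log2 difference of Vim and Sparc was -0.47 in place of 0.54. Counts over all tested genes moved more: for X10 and IGF1 versus the other groups, 26 genes became 10 to 51 under another setting and 10 to 131 without 1 tumor. For X10 versus insulin 17 became 6 to 31 and 5 to 95, for X10 versus vehicle 11 became 1 to 24 and 1 to 21, and for any of the 5 treatments 17 became 0 to 22 and 0 to 110. Untreated_161 was left out after its values were seen. With 10 tumors a group, intervals remain wide, as those given above for S100a4 show.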
